A study of Rattus norvegicus with 24 samples.

Results

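Laminins and integrins are described here by 36 genes among the 26641 named loci of the messenger RNA table. They were chosen by gene symbol alone, as laminin alpha, beta or gamma chains and integrin alpha or beta chains among the deposited gene names. Where a symbol had 2 loci, as Itga3 and Itgav did, the locus with the higher mean over the 24 libraries stood for it. By what their proteins bind, the 36 genes comprised 8 integrin subunits of leukocytes, 18 subunits of matrix-binding integrins and 10 laminin chains. Of the 18 matrix-binding subunits 4 bind laminin (Itga3, Itga6, Itga7, Itgb4) and 4 bind collagen (Itga1, Itga2, Itga10, Itga11). Another 8 read the RGD sequence of fibronectin, vitronectin and fibrinogen, and the others were Itga9 and the broad partner Itgb1.

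RNA had been taken at 3 months after surgery from 6 TBI rats and 6 sham-operated controls, from cortex beside the lesion and from thalamus on the injured side, with 1 library per rat and region, so both regions came from the same animals. All were adult male Sprague-Dawley rats and no altered gene is named for either group. TBI was a lateral fluid-percussion injury, a pressure pulse delivered to the intact dura through a craniectomy, whereas the controls had the anaesthesia and surgery without the impact. The TBI rats had been selected on magnetic resonance images for an inflammatory rim around the lesion, so they stand for that kind of injured rat, and the dissected pieces held every cell type of the region. In such bulk tissue, more cells of a type and more RNA per cell cannot be told apart.

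Integrins are paired receptors in which 1 alpha chain and 1 beta chain span the membrane together, and the pairing sets what is bound. The leukocyte integrins share the beta chain Itgb2 or pair with Itgb7 or Itgb1, and they hold microglia, macrophages and lymphocytes to endothelium, complement fragments and other cells. Laminins are heterotrimers of 1 alpha, 1 beta and 1 gamma chain that form the sheet of the basement membrane around vessels and under the meninges, where laminin-binding integrins and dystroglycan of endothelium and astrocyte endfeet attach to them.

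The values are normalized counts, that is, numbers of sequenced fragments that the authors scaled by 1 factor per library. Depth ran from 30568927 to 54608922 fragments per library. A gene was tested in a region where its mean over the 12 libraries was at least 10, by limma on log2(normalized count + 1), and was called higher or lower at a Benjamini-Hochberg adjusted p under 0.05 over all loci tested. All fold changes are differences on that scale, where the added 1 shrinks the change of genes with few counts. Normalized counts are not divided by transcript length, so levels were compared between groups for 1 gene at a time and never between genes. The libraries of rat 45, a TBI rat, stood apart. Its summed count of 6 choroid plexus markers was 258298 in thalamus and 32089 in cortex, against at most 1769 and 1124 in the other TBI libraries of those regions. Its summed count of 7 fibroblast and meningeal markers was 46488 in thalamus, against at most 3293 in the other 5. The sham thalamus libraries of rats 50 and 34 also had high choroid plexus sums of 106672 and 67340, and the sham cortex library of rat 26 had 23389. Every fit of a TBI effect was repeated without both libraries of rat 45. The value without them stands beside each named gene whose call was then lost. It also stands where the fold change of a called gene moved by over 1.5 times. The sham libraries of rats 26, 34 and 50 stayed in, so these values are not free of such sums on the sham side.

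The leukocyte integrins Itgb2, Itgal and Itgax were higher in TBI rats in both regions, and 7 of 10 laminins were higher in the cortex. In the cortex 17 of 34 tested members were higher in TBI rats and 1 was lower, whereas 14.3% and 14.9% of all 15493 loci tested were called in these directions. In the thalamus 12 of 32 tested members were higher and 1 was lower, against 14.5% and 20.9% of 15564 loci. Of the 7 leukocyte integrins tested in cortex 3 were higher, and of the 6 tested in thalamus 5 were higher, with none lower in either region, also at an unadjusted p under 0.05 and by edgeR on recovered fragments. Itgax in both regions and Itgb7 in cortex passed the filter only through the TBI libraries. With a mean of at least 10 asked of each group, 2 of 5 leukocyte integrins were higher in cortex and 4 of 5 in thalamus. Of the 10 laminins, 7 were higher in cortex and none was lower by limma or edgeR (1 had an unadjusted p under 0.05), but in thalamus 1 was higher and 1 lower. Matrix-binding integrins had 7 of 17 higher and 1 lower in cortex, and 6 of 16 higher and none lower in thalamus, again with none at an unadjusted p under 0.05 or by edgeR. Without both libraries of rat 45 the same members were called in each region.

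The median log2 fold change of the tested leukocyte integrins was 0.70 in cortex and 1.29 in thalamus. Over the 5 with a mean of at least 10 in each group it was 0.15 and 0.90, so the cortical median rested on Itgax and Itgb7. For the laminins the median was 0.55 in cortex and 0.34 in thalamus, and without rat 45 it was 0.45 and 0.14. For the matrix-binding integrins it was 0.21 and 0.35, and 0.21 and 0.30 without that rat. Over all loci tested it was -0.01 in cortex and -0.02 in thalamus. These counts and medians describe members that passed the filter. Itga2 and Itgad were too low to test anywhere, and Itga10 and Itgb7 were too low in thalamus. All 6 TBI libraries lay above all 6 sham libraries for 8 members in cortex and 7 in thalamus, Itgax among the latter, and below them for 1 in each. Among all loci tested, 7.02% in cortex and 7.46% in thalamus were separated upward, and 5.45% and 10.7% downward.

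**Figure D1:**
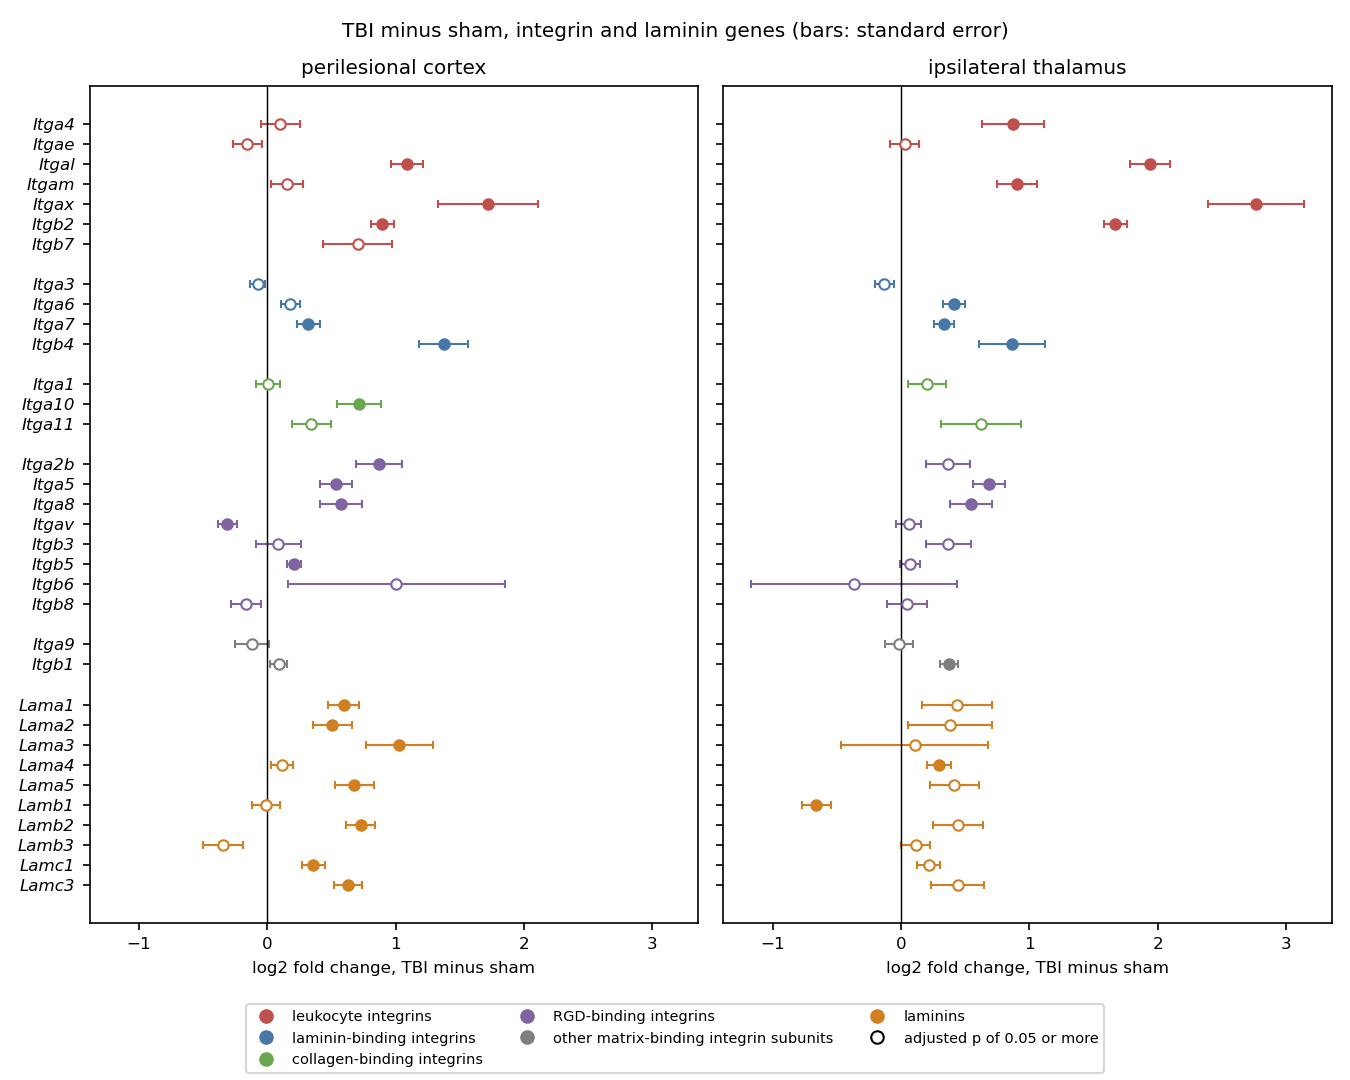
The plot shows the log2 fold change of TBI minus sham for each tested member, with its standard error as a bar, in cortex on the left and thalamus on the right. Filled points are past the adjusted p of 0.05. The red leukocyte points reach 1.72 in cortex and 2.77 in thalamus, whereas 7 of the 10 orange laminin points are filled in cortex and 2 in thalamus.

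The classes were also followed rat by rat. For each library the log2 difference from the sham mean of its region was taken for every tested member with a mean of at least 10 in each group, and the median over a class was noted. For leukocyte integrins it ran from 0.11 to 0.53 in the 6 TBI cortices and from 0.53 to 1.44 in the 6 TBI thalami, and the sham libraries reached at most 0.24 and 0.15. The groups overlapped in cortex and not in thalamus. For matrix-binding integrins it ran from 0.10 to 0.37 in TBI cortex and from 0.14 to 0.54 in TBI thalamus, where sham libraries reached 0.16. For laminins it ran from 0.12 in rat 63 to 0.96 in rat 45 in cortex. In thalamus 5 TBI rats lay between 0.0085 and 0.20 for laminins and rat 45 stood at 1.30, and a sham library reached 0.42.

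**Figure D2:**
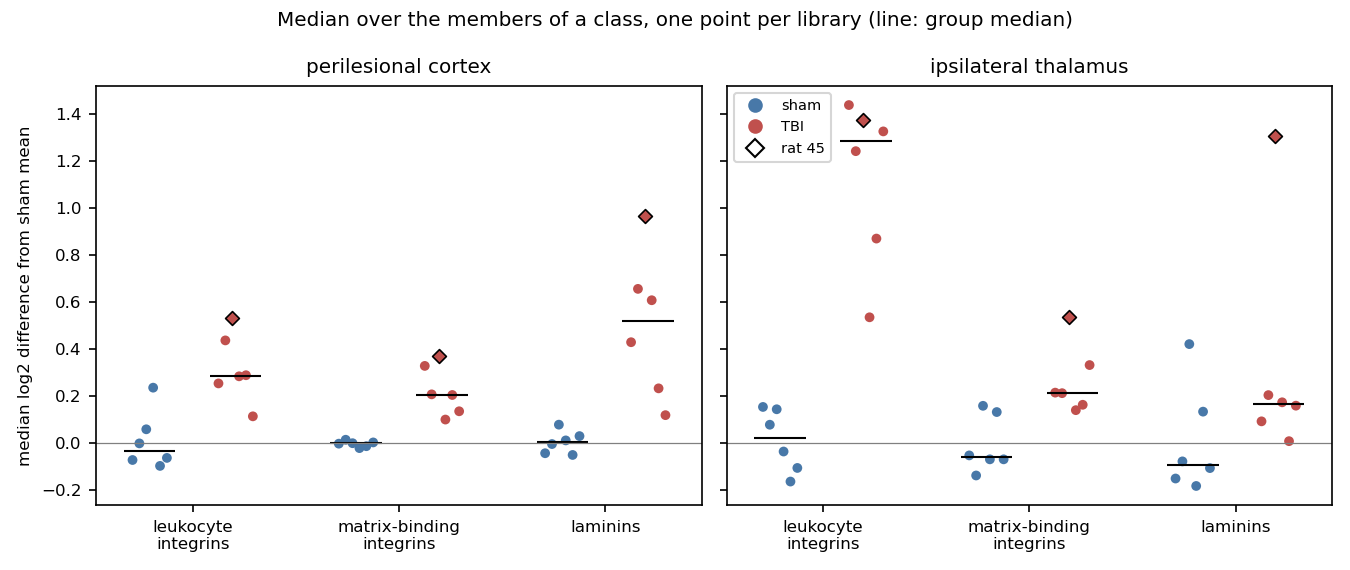
Each point is 1 library, and its height is the median log2 difference from the sham mean over the tested members of a class, with a line at the group median. Members with a mean of at least 10 in each group enter, and the leukocyte points of TBI rats lie between 0.53 and 1.44 in thalamus, and the outlined diamond of rat 45 stands alone at 1.30 among the laminins of TBI thalamus.

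Itgb2 encodes the beta chain shared by the leukocyte integrins that carry Itgal, Itgam, Itgax or Itgad. It is listed on chromosome 20 from 13944187 to 13981023. The methods name RGSC3.4 as the genome and Rnor_5.0 as the annotation, and the files state neither, so positions are given as listed. In cortex Itgb2 ran from 367.5 to 427 normalized counts in sham rats, with a median of 387.5, and from 576 to 890 in TBI rats, with a median of 767.5. In thalamus it ran from 459 to 570 in sham rats, with a median of 509, and from 1452 to 2066 in TBI rats, with a median of 1536. Every TBI library lay above every sham library in both regions. The log2 fold change was 0.90 ± 0.09 (SE, adjusted p = 1.3e-05 by limma) in cortex and 1.67 ± 0.09 (adjusted p = 2.16e-08) in thalamus, or 1.86-fold and 3.18-fold. The rise was larger in thalamus by 0.77 ± 0.13 (adjusted p = 0.00069 for the interaction over 24 libraries).

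Itgal, the alpha chain of the lymphocyte function-associated antigen, showed the same pattern. It ran from 77.1 to 109 normalized counts in sham cortex, with a median of 95.5, and from 163 to 264 in TBI cortex, with a median of 197. The thalamic range was from 91.4 to 138 in sham rats, with a median of 101, and from 324 to 638.5 in TBI rats, with a median of 405. The groups did not overlap in either region, and rat 63 had the highest thalamic value. TBI exceeded sham on the log2 scale by 1.09 ± 0.12 in cortex (adjusted p = 2.99e-05) and 1.94 ± 0.16 in thalamus (adjusted p = 8.57e-07, limma), and the difference of 0.85 ± 0.20 between regions passed the test (adjusted p = 0.0119).

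Itgam, the alpha chain of complement receptor 3 and a widely used microglia and macrophage label, did not follow its partner in the cortex. It ran from 660 to 1073 normalized counts in sham cortex, with a median of 822, and from 662 to 1109 in TBI cortex, with a median of 935, so the groups overlapped over nearly their whole range. In thalamus it ran from 636 to 1118 in sham rats, with a median of 997, and from 1325 to 2294 in TBI rats, with a median of 1695, with no overlap. Its log2 fold change was 0.15 ± 0.13 in cortex (adjusted p = 0.393) and 0.90 ± 0.16 in thalamus (adjusted p = 0.000549, limma). The difference between regions was 0.75 ± 0.22 (adjusted p = 0.0342), and leaving out any 1 of 7 libraries lost this call, at adjusted p values between 0.0523 and 0.0656. Those were the libraries of sham rats 34 and 38 and TBI rat 52 in cortex, and of sham rats 50 and 55 and TBI rats 24 and 63 in thalamus.

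The ratio of Itgam to Itgb2 within a library, which is free of the library's size factor, was lower in TBI rats in both regions. It ran from 1.73 to 2.51 in sham cortex and from 1.15 to 1.38 in TBI cortex, and from 1.35 to 2.08 in sham thalamus and from 0.912 to 1.24 in TBI thalamus. The ranges of TBI and sham libraries did not overlap. The ratio was picked after both genes had been seen and is given as a description.

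Itgax, the alpha chain found on dendritic cells and on activated microglia, was the member with the highest fold change in both regions, at low counts. It ran from 1.89 to 11.3 normalized counts in sham cortex, with a median of 5.48, and from 8.33 to 41.6 in TBI cortex, with a median of 23.0. Counts in thalamus ran from 1.06 to 7.51 in sham rats, with a median of 5.35, and from 20.6 to 62.4 in TBI rats, with a median of 32.6. In cortex 5 of 6 TBI libraries lay above every sham library, with rat 63 the exception, and in thalamus all 6 did. One sham cortex library and 2 sham thalamus libraries held 3 fragments or fewer. The log2 fold change was 1.72 ± 0.39 in cortex (adjusted p = 0.00447, limma) and 2.77 ± 0.38 in thalamus (adjusted p = 8.04e-05). Its difference between regions, 1.05 ± 0.56, did not pass the test (adjusted p = 0.274). Without rat 45 the log2 fold changes were 1.52 and 2.65, and both still passed.

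Itga4 forms the very late antigen with Itgb1 or the gut-homing receptor with Itgb7, and lymphocytes and monocytes use it to bind vascular cell adhesion molecule. It ran from 75.5 to 123 normalized counts in sham cortex, with a median of 86.2, and from 80.6 to 134 in TBI cortex, with a median of 95.02. In thalamus it ran from 18.9 to 36.3 in sham rats, with a median of 22.5, and from 30.3 to 68.0 in TBI rats, with a median of 45.9. The cortical groups overlapped, while in thalamus 4 of 6 TBI libraries lay above every sham library. Its log2 fold change was 0.10 ± 0.15 in cortex (adjusted p = 0.644, limma) and 0.87 ± 0.24 in thalamus (adjusted p = 0.0113). The difference between the regions did not pass the test (0.77 ± 0.28, adjusted p = 0.1).

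The other leukocyte subunits did not pass in either region. Itgae, the alpha chain of resident lymphocytes in epithelia, ran from 136 to 197 normalized counts in sham cortex and from 130 to 177 in TBI cortex, with medians of 172 and 150. Thalamic values ran from 160 to 229 in sham rats and from 175 to 240 in TBI rats, with medians of 196 and 194. The listed span of Itgae takes in other named genes, and the groups overlapped in both regions. Itgb7, the beta chain that pairs with Itga4 or Itgae, had medians of 10.3 in sham cortex and 16.4 in TBI cortex, over ranges from 5.59 to 13.7 and from 10.8 to 22.9. Its log2 fold change of 0.70 ± 0.27 missed the threshold (adjusted p = 0.0601 by limma), and it passed without the cortex library of sham rat 32 or of TBI rat 24, at adjusted p values of 0.0419 and 0.0422. Itgad never exceeded 7.34 normalized counts.

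**Figure D3:**
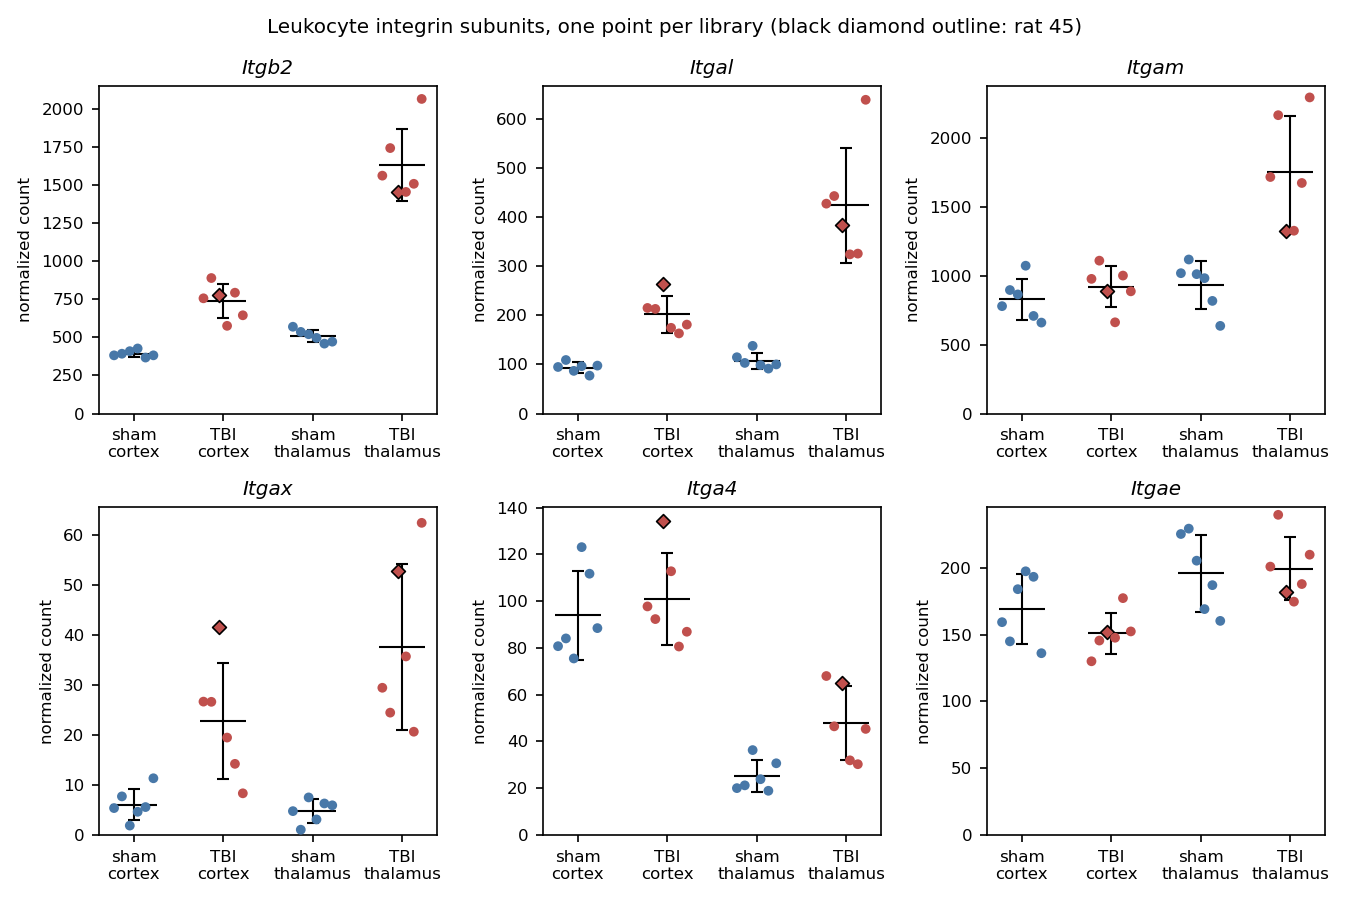
Each panel shows 1 leukocyte integrin subunit, with 1 point per library, the group mean as a line and the SD as a bar, on a linear axis of normalized counts. For Itgb2 and Itgal the TBI libraries sit above the sham libraries in both regions, whereas for Itgam they do so in thalamus, where they lie between 1325 and 2294.

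Itgam, Itgax and Itgad lie next to each other in the files on chromosome 1, from 206522861 to 206670730, and Itgal lies on the same chromosome from 205742368 to 205780279. These 4 are close relatives, and how fragments matching more than 1 of them were divided is not given in the sources used here. To show how the start regions of neighbouring leukocyte genes differ in base composition from those of a broad integrin chain and a laminin chain, 150 bases before the annotated start are printed from RefSeq (GRCr8), with CG pairs in capitals. The windows are chr1:192089442-192089591 on the plus strand for Itgam, chr1:192149899-192150048 on the plus strand for Itgax, chr19:73602127-73602276 on the plus strand for Itgb1 and chr13:68051987-68052136 on the minus strand for Lamc1.
Itgam: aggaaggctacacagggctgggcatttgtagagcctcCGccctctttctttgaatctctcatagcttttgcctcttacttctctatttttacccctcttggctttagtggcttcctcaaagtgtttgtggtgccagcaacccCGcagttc
Itgax: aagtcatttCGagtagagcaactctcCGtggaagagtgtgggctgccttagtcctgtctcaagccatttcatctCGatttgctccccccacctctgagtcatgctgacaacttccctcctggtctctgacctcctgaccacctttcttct
Itgb1: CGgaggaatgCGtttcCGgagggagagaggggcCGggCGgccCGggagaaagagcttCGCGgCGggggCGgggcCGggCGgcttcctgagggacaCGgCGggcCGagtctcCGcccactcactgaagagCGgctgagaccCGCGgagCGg
Lamc1: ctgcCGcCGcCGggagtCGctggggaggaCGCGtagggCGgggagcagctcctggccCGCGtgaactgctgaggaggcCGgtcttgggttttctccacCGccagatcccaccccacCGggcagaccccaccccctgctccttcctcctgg

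The printed windows hold 2 CG pairs for Itgam, 3 for Itgax, 20 for Itgb1 and 12 for Lamc1. Over the full windows of 300 bases, from 250 before the start to 50 after it, 28 of the 36 members matched a promoter by symbol. Itgb2, Itgal and Itgad were among those without a match. The printed Itgb1 and Lamc1 lay at the CG-rich end of their classes, with 35 and 28 pairs in the full window. The 5 matched leukocyte integrins held from 3 to 9 CG pairs, with a median of 5, whereas the 14 matrix-binding integrins held from 5 to 45, with a median of 15.5, and the 9 laminins from 4 to 28, with a median of 12. Over 33365 rat promoters the median was 7. The letters GAGGAA, a form of the Ets family motif, were sought on either strand. They occurred in 2 of the 5 leukocyte windows, in 5 of 14 and 5 of 9 of the other classes, and in 27.6% of all promoters. Such matches describe letters, not sites in use.

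Markers of myeloid cells and lymphocytes were also compared between TBI and sham rats. Beside their counts, 14.3% of all loci were called higher and 14.9% lower in cortex, and 14.5% and 20.9% in thalamus. All 10 microglia and macrophage markers listed, among them Aif1, Cx3cr1, P2ry12, Csf1r and Cd68, were higher in TBI rats in both regions, and 9 of 10 in cortex and all 10 in thalamus without rat 45. Their summed count ran from 14361 to 15228 in sham cortex, from 20411 to 22486 in TBI cortex, from 15191 to 19607 in sham thalamus and from 31266 to 40145 in TBI thalamus, and none was at or under 3 fragments in every library of a group. Of 5 neutrophil markers 2 could be tested and 1 was higher in each region. Without rat 45 the 1 called was Csf3r in each region, at 0.66 in cortex and 1.26 in thalamus (adjusted p = 0.00283 and 2.21e-05, limma). S100a9, the other tested in cortex, then stood at 0.05 there (adjusted p = 0.925). The neutrophil sum ran from 144 to 206 in sham cortex, from 225 to 381 in TBI cortex, from 163 to 286 in sham thalamus and from 362 to 628 in TBI thalamus. Elane stayed at or under 3 fragments in every library of all 4 groups. Of 8 T cell markers none of 4 tested was called in cortex and 1 of 2, Cd8b, was higher in thalamus. Cd8b had a mean of 0.165 normalized counts in sham and 20.7 in TBI thalamus, so it passed the filter only through the TBI libraries. Without rat 45 it was too low to test. Their sum ran from 105 to 153 in sham cortex, from 127 to 181 in TBI cortex, from 52.5 to 89.7 in sham thalamus and from 82.6 to 125 in TBI thalamus, and Cd3g stayed at or under 3 fragments in every thalamus library. The 3 B cell markers found were too low to test, with sums of at most 21.4. The part of these cells in the integrin changes was not tested.

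The genes that leukocyte integrins bind on other cells changed less uniformly. Of 11 surface ligands 4 were higher and 1 lower in cortex, and of the 10 tested in thalamus again 4 were higher and 1 lower. Among all loci 14.3% were higher and 14.9% lower in cortex, and 14.5% and 20.9% in thalamus. Icam1, the endothelial and glial ligand of Itgal and Itgam, rose by 0.62 ± 0.10 on the log2 scale in cortex and 0.96 ± 0.16 in thalamus (adjusted p = 0.00052 and 0.000446, limma). Vcam1, the ligand of Itga4, rose by 0.41 ± 0.08 in thalamus (adjusted p = 0.00115), where Jam2, a junctional adhesion molecule, rose least, by 0.24 ± 0.05 (adjusted p = 0.00146). Cdh1, the epithelial cadherin bound by Itgae, was highest in cortex at 0.81 ± 0.25 (adjusted p = 0.0258). F11r, a relative of Jam2 and a ligand of Itgal, was lowest among the ligands that rose in cortex, at 0.19 ± 0.06 (adjusted p = 0.0363), and it missed the threshold without rat 45 (adjusted p = 0.0823). Thy1, an abundant neuronal surface protein that binds leukocyte integrins, fell by 0.36 ± 0.06 in cortex and by 0.54 ± 0.09 in thalamus (adjusted p = 0.000613 and 0.000348).

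Of 27 integrin activators and adhesion adaptors, 8 were higher and 1 lower in cortex. Of the 26 tested in thalamus 11 were higher and 3 lower (10 and 4 without rat 45). The shares of all loci were 14.3% higher and 14.9% lower in cortex, and 14.5% and 20.9% in thalamus. Fermt3, the kindlin of blood cells that switches Itgb2 on, rose from a mean of 309 ± 21.2 (SD, n = 6) to 477 ± 50.5 normalized counts in cortex and from 370 ± 35.8 to 677 ± 63.1 in thalamus. The corresponding log2 fold changes were 0.62 ± 0.08 and 0.87 ± 0.08 (adjusted p = 8.3e-05 and 3.64e-06 by limma). Parvg, the leukocyte parvin, rose by 0.54 ± 0.15 in cortex and 0.86 ± 0.13 in thalamus (adjusted p = 0.0161 and 0.000184). Parvb, a broadly expressed parvin, rose by 0.26 ± 0.05 in cortex (adjusted p = 0.00142). Fermt2, the kindlin of other tissues, fell by 0.22 ± 0.05 in cortex (adjusted p = 0.00897). In thalamus Rasgrp2, an activator of Rap1 that is also expressed in neurons, fell by 0.92 ± 0.07, and Ptk2b, a focal adhesion kinase relative, fell by 0.42 ± 0.08 (adjusted p = 9.08e-07 and 0.000743). For 3 of the 27 the TBI effect in thalamus minus that in cortex was positive past the threshold (Apbb1ip, Nedd9 and Fermt2, by 0.26 to 0.42). For 3 it was negative (Rasgrp2, Ptk2b and Parvb, from -0.75 to -0.28). Over all loci these shares were 2.72% and 4.54%. These are signed differences, as Rasgrp2 and Ptk2b fell in thalamus and Fermt2 fell in cortex. Without rat 45 none was positive and 4 were negative past the threshold. Apbb1ip, Nedd9 and Fermt2 then had adjusted p values between 0.053 and 0.0582 by limma.

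Among the laminin-binding integrins 2 of 4 were higher in cortex and 3 of 4 in thalamus, and none was lower. Shares over all loci were 14.3% higher and 14.9% lower in cortex, and 14.5% and 20.9% in thalamus. Itgb4, the beta chain that anchors epithelial and endothelial cells to laminin with Itga6, had the highest fold change of any matrix-binding subunit that passed in either region. It ran from 348 to 472 normalized counts in sham cortex, with a median of 440, and from 734 to 1844 in TBI cortex, with a median of 1037. In thalamus it ran from 141 to 399 in sham rats, with a median of 192, and from 265 to 699 in TBI rats, with a median of 341. The cortical groups did not overlap, and in thalamus 2 of 6 TBI libraries, those of rats 22 and 45, lay above the highest sham library, that of rat 34. The log2 fold change was 1.37 ± 0.19 in cortex (adjusted p = 0.000147, limma) and 0.86 ± 0.26 in thalamus (adjusted p = 0.0175). Rat 45 was highest in both regions, and without it the values were 1.22 and 0.68, both past the threshold.

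Itga7, an alpha chain of muscle and of vessel walls, ran from 588 to 843 normalized counts in sham cortex and from 793 to 1033 in TBI cortex, with medians of 773 and 925. The thalamic range was from 772 to 1069 in sham rats and from 1039 to 1278 in TBI rats, with medians of 873 and 1068. Its ranges overlapped in both regions, with 5 TBI libraries above every sham library in cortex and 3 in thalamus. On the log2 scale the difference of TBI from sham was 0.32 ± 0.09 in cortex and 0.34 ± 0.08 in thalamus (adjusted p = 0.0152 and 0.00497, limma). Itga6, a laminin receptor of endothelium and glia, ran from 3398 to 4414 in sham thalamus and from 4307 to 6083 in TBI thalamus, with medians of 4057 and 5442. It was higher there by 0.41 ± 0.08 (adjusted p = 0.00179), with 5 TBI libraries above every sham library. In cortex its log2 fold change was 0.18 ± 0.08 (adjusted p = 0.0902). Itga3 passed in neither region, with log2 fold changes of -0.08 and -0.13.

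Of the RGD-binding subunits 4 of 8 were higher and 1 lower in cortex, and 2 of 8 were higher in thalamus. Shares over all loci were 14.3% higher and 14.9% lower in cortex, and 14.5% and 20.9% in thalamus. The 1 lower in cortex was 12.5% of the 8, near its share. Itga5, the alpha chain of the fibronectin receptor, ran from 146 to 194 normalized counts in sham cortex and from 199 to 309 in TBI cortex, with medians of 181 and 252. In thalamus it ran from 121 to 153 in sham rats and from 178.5 to 311 in TBI rats, with medians of 130 and 203. No TBI value overlapped a sham value in either region. The log2 fold change was 0.54 ± 0.13 in cortex and 0.68 ± 0.13 in thalamus (adjusted p = 0.00557 and 0.000852, limma), and it was 0.48 and 0.57 without rat 45. Itga8, whose ligand nephronectin is a basement membrane protein, ran from 107 to 141 in sham thalamus and from 150 to 314 in TBI thalamus, with medians of 130 and 167 and no overlap. It was higher by 0.54 ± 0.16 in thalamus and 0.57 ± 0.16 in cortex (adjusted p = 0.0179 and 0.0171), or 0.39 and 0.46 without rat 45.

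Itga2b, the alpha chain of the fibrinogen receptor of platelets, ran from 33.7 to 57.8 normalized counts in sham cortex and from 54.4 to 113 in TBI cortex, with medians of 41.5 and 82.4. All but 1 of the TBI libraries lay above the sham range. TBI exceeded sham on the log2 scale by 0.87 ± 0.18 in cortex (adjusted p = 0.00244, limma) and 0.36 ± 0.17 in thalamus (adjusted p = 0.115), where it passed without sham rat 34 (0.48, adjusted p = 0.026). The cortical value was as large without rat 45. Of 4 platelet markers only Pf4 could be tested, and it was higher in cortex by 0.81 (adjusted p = 0.00159), while Ppbp and Gp9 stayed at or under 3 fragments in every cortex library. The platelet sum ran from 36.3 to 52.7 in sham cortex and from 64.3 to 98.1 in TBI cortex, and from 32.2 to 62.0 in sham thalamus and from 47.9 to 133 in TBI thalamus. Its part in the result was not tested. Itgb3, the beta chain that completes this receptor, had differences of 0.08 ± 0.17 in cortex and 0.37 ± 0.17 in thalamus on the log2 scale, which missed the threshold (adjusted p = 0.752 and 0.112).

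Itgav, the alpha chain of the vitronectin receptors, was the only integrin subunit called lower in either region. Its log2 fold change was -0.31 ± 0.07 in cortex (adjusted p = 0.0061, limma), with group ranges from 5475 to 6663 in sham and from 3970 to 5443 in TBI rats that did not overlap. In thalamus it was 0.06 ± 0.10 (adjusted p = 0.681). The difference between regions did not pass (0.37 ± 0.13, adjusted p = 0.0827), although it did without the thalamus library of sham rat 38 or of TBI rat 56, at adjusted p values of 0.0328 and 0.0413. Itgb5, a partner of Itgav, was higher in cortex by 0.21 ± 0.05 (adjusted p = 0.01). Itgb6 and Itgb8, the partners that release active TGF-beta, did not pass in either region.

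Of the collagen receptors only Itga10, the alpha chain of cartilage, passed a test, and only in cortex, where 3 of the 4 were measured above the filter. It ran from 18.6 to 28.4 normalized counts in sham cortex and from 31.6 to 56.1 in TBI cortex, with medians of 24.2 and 38.5 and no overlap. The log2 fold change was 0.71 ± 0.17 (adjusted p = 0.00584, limma), or 0.61 without rat 45, and with all 24 libraries in 1 fit the adjusted p was 0.0856. Itga1 and Itga11 had log2 fold changes of 0.00 and 0.34 in cortex and of 0.20 and 0.62 in thalamus. Itga11 passed in cortex once TBI rat 52 was left out (0.48, adjusted p = 0.00888).

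Itgb1, the beta chain shared by the laminin, collagen and fibronectin receptors, ran from 3639 to 4257 normalized counts in sham thalamus, with a median of 3980, and from 4521 to 6305 in TBI thalamus, with a median of 5073, with no overlap. In cortex it ran from 4198 to 4549 in sham rats and from 4090 to 5624 in TBI rats, with medians of 4348 and 4633, and the groups overlapped. Its log2 fold change was 0.37 ± 0.07 in thalamus (adjusted p = 0.00134, limma) and 0.09 ± 0.07 in cortex (adjusted p = 0.33). The difference between regions was 0.28 ± 0.10 and missed the threshold (adjusted p = 0.0923). It passed with the rat as a block, which pairs the 2 libraries of an animal (adjusted p = 0.0492), and without rat 45 (0.28, adjusted p = 0.0304). Itga9, the tenascin-C receptor chain, passed in neither region.

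The laminin chains of the cortex rose together in part. Higher in TBI cortex were the alpha chains Lama1, Lama2, Lama3 and Lama5, the beta chain Lamb2 and the gamma chains Lamc1 and Lamc3, whereas Lama4, Lamb1 and Lamb3 passed in neither direction. Lamb2, the beta chain of mature vascular and synaptic basement membranes, ran from 2045 to 2714 normalized counts in sham cortex, with a median of 2449, and from 3162 to 5387 in TBI cortex, with a median of 3770. Lamc3, a less common gamma chain, ran from 420 to 586 in sham cortex and from 652 to 1007 in TBI cortex, with medians of 485 and 738. Neither gene's groups overlapped, and rat 45 was the highest for both. On the log2 scale they rose by 0.73 ± 0.11 and 0.63 ± 0.11 (adjusted p = 0.000304 and 0.000861, limma), and without rat 45 they were 0.64 and 0.55.

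The other laminin rises in cortex ranged from 0.36 ± 0.09 for Lamc1, the gamma chain of most trimers, to 1.03 ± 0.26 for Lama3, the alpha chain of epithelial laminin (adjusted p = 0.00622 and 0.00862, limma). Between them lay Lama2 of pericyte and astrocyte basement membranes at 0.51, Lama1 of the pial basement membrane at 0.59 and Lama5 of endothelium at 0.68. All 7 passed without rat 45, at 0.30 for Lamc1, 0.87 for Lama3, 0.38 for Lama2, 0.53 for Lama1 and 0.61 for Lama5. With all 24 libraries in 1 fit, Lama2 and Lama3 no longer passed, at adjusted p values of 0.169 and 0.111. Lamb3, the beta chain of epithelial laminin, had the lowest cortical value of the laminins, -0.35 ± 0.16, which missed the threshold (adjusted p = 0.111).

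In the thalamus 2 laminins were called, in opposite directions. Lamb1, the beta chain widespread in development and in vessels, ran from 1480 to 2103 normalized counts in sham rats, with a median of 1942, and from 937 to 1363 in TBI rats, with a median of 1225. In cortex it ran from 1605 to 1932 in sham rats and from 1246 to 2202 in TBI rats, with medians of 1874 and 1928. The thalamic groups did not overlap, and all 6 TBI values were the lower ones, while the cortical groups overlapped. The log2 fold change was -0.66 ± 0.11 in thalamus (adjusted p = 0.000434, limma) and -0.01 ± 0.11 in cortex (adjusted p = 0.961), and the difference of -0.65 ± 0.17 passed (adjusted p = 0.018). It was -0.65 without rat 45 as well (adjusted p = 0.022). The listed span of Lamb1 overlaps that of the neighbouring gene Dld. Neuronal markers were lower too, 6 of 7 in each region (5 in cortex without rat 45), with sums from 265056 to 296015 in sham cortex, from 166259 to 247968 in TBI cortex, from 173499 to 213712 in sham thalamus and from 109140 to 142966 in TBI thalamus. All 5 thalamus identity markers, among them Tcf7l2 and Prkcd, were lower in TBI thalamus. Without rat 45, 4 were, and Tcf7l2 missed the threshold (-0.20, adjusted p = 0.0744, limma). Of the 5 markers, 4 had a lower TBI effect in thalamus than in cortex. Their sum ran from 77652 to 108390 in sham thalamus and from 57322 to 69889 in TBI thalamus, and from 3098 to 3632 in sham cortex and from 3058 to 4030 in TBI cortex. Over all loci 14.9% were called lower in cortex and 20.9% in thalamus, and 4.54% had a lower TBI effect in thalamus than in cortex. No marker of these lists lay at or under 3 fragments in every library of a group, and their part in the Lamb1 result was not tested. Lama4, the endothelial alpha chain, was the only laminin called higher in thalamus. It ran from 534 to 712 in sham rats and from 675 to 933 in TBI rats, with medians of 590 and 688, and its ranges overlapped.

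Lama4 was higher by 0.30 ± 0.09 on the log2 scale (adjusted p = 0.0217, limma), or 0.22 without rat 45, and it missed the threshold without sham rat 55 (adjusted p = 0.0541). For the other 8 laminins the thalamic log2 fold changes ran from 0.10 to 0.44 and none passed. Without rat 45 several were closer to 0, as for Lamb2 (0.44 and 0.25), Lama1 (0.44 and 0.15), Lama2 (0.38 and 0.08) and Lamc3 (0.44 and 0.23). Lamb2 passed in 1 fit of all 24 libraries (adjusted p = 0.0435), Lama5 passed without sham rat 34 (0.53, adjusted p = 0.0356), and Lamc1 passed without TBI rat 56 (0.26, adjusted p = 0.0409). Apart from Lamb1 none of the 10 laminins had a TBI effect that differed between the regions past the threshold, so a rise in cortex and none in thalamus is not shown for the others.

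**Figure D4:**
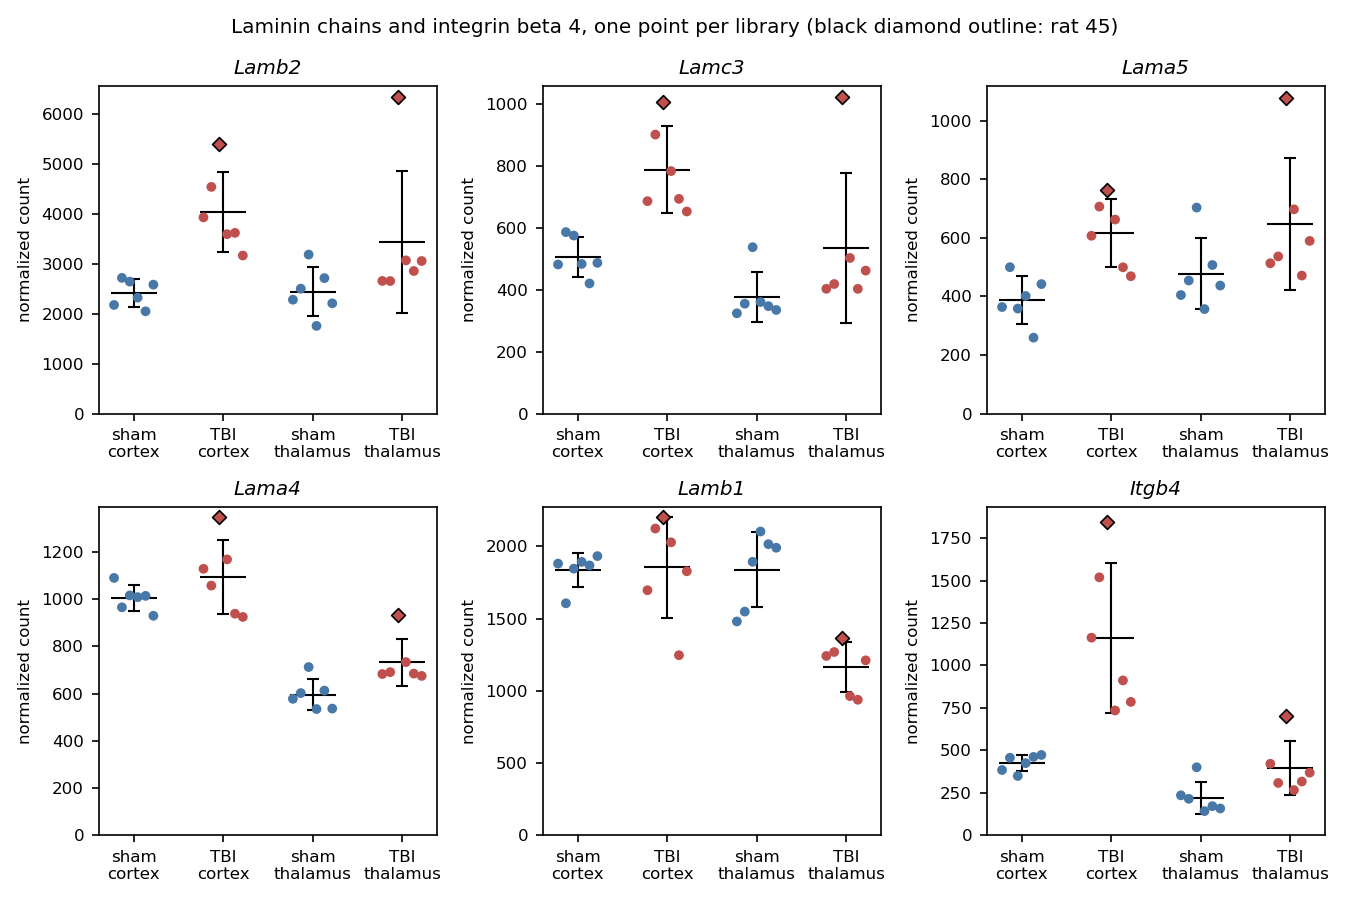
Each panel shows 1 gene, with 1 point per library, the group mean as a line and the SD as a bar, on a linear axis of normalized counts, and the outlined diamond is rat 45. Lamb2, Lamc3 and Itgb4 sit higher in TBI than in sham cortex with no overlap, Lama5 sits higher there with overlap, and Lamb1 lies between 937 and 1363 in TBI thalamus, below all its sham libraries.

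Of 10 basement membrane partners of the laminins 7 were higher in TBI cortex and none lower, and in thalamus 2 were higher and none lower. Without rat 45 these counts were 6 and 2. With all libraries, 14.3% of all loci in cortex and 14.5% in thalamus were called higher. Smoc2, a matricellular protein, and Hspg2, the heparan sulfate proteoglycan perlecan, had the largest cortical rises, at 0.78 ± 0.18 and 0.72 ± 0.19 (adjusted p = 0.00557 and 0.00963, limma). Dag1, which encodes dystroglycan, and Bcam, a receptor of Lama5, had the smallest that passed, at 0.13 ± 0.04 and 0.33 ± 0.10 (adjusted p = 0.0289 and 0.0186), and Dag1 missed the threshold without rat 45 (adjusted p = 0.0725). In thalamus Nid1, the linker of laminin to collagen IV, rose by 0.44 ± 0.16 and Smoc1 by 0.34 ± 0.07 (adjusted p = 0.0442 and 0.00234), and without rat 45 Nid1 stood at 0.28 (adjusted p = 0.0395). Sparc was the 1 gene of these whose TBI effect differed between regions, being smaller in thalamus by 0.40 ± 0.09 (the coded difference was -0.40, adjusted p = 0.00654).

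Among the other matrix ligands of integrins Spp1 had the largest TBI effect in both regions. Spp1, which encodes osteopontin and is bound by Itgav, Itga9 and Itga4 receptors, rose from 33.5 ± 10.8 (SD, n = 6) to 499 ± 207 normalized counts in cortex and from 207 ± 27.1 to 1904 ± 760 in thalamus. Its log2 fold change was 3.82 ± 0.30 and 3.11 ± 0.21 (adjusted p = 2e-06 and 2.23e-07, limma). Tnc, the Itga9 ligand tenascin-C, rose by 1.32 ± 0.13 in cortex and fell by 0.49 ± 0.10 in thalamus (adjusted p = 1.1e-05 and 0.00148). Vtn, the ligand vitronectin of Itgav, rose by 0.44 ± 0.10 in cortex (adjusted p = 0.00497), and Postn, the ligand periostin, rose by 1.48 ± 0.28 in thalamus (adjusted p = 0.00107). Ibsp, a bone matrix protein with an RGD sequence, fell by 0.99 ± 0.20 in cortex, and Mfge8, which bridges dying cells to Itgav, fell by 0.25 ± 0.07 in thalamus (adjusted p = 0.00237 and 0.0169). Of the 14 ligands measured, 6 were higher and 1 lower in cortex, and of the 13 tested in thalamus 5 were higher and 2 lower. For all loci the shares were 14.3% higher and 14.9% lower in cortex, and 14.5% and 20.9% in thalamus.

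Markers of cells that make or border basement membrane differed by list and region. The shares of all loci called were 14.3% higher and 14.9% lower in cortex, and 14.5% and 20.9% in thalamus. Of 7 fibroblast and meningeal markers, among them Dcn, Lum and Col1a1, 6 were higher in TBI cortex and none in thalamus. Their sum ran from 11823 to 17989 in sham cortex, from 17834 to 47691 in TBI cortex, from 2068 to 10032 in sham thalamus and from 2670 to 46488 in TBI thalamus. Of 8 endothelial markers 2 were higher in cortex and 5 in thalamus, and none was lower, with 1 and 4 higher without rat 45. Their sum ran from 12586 to 14491 in sham cortex, from 13683 to 15102 in TBI cortex, from 10240 to 13358 in sham thalamus and from 12278 to 16631 in TBI thalamus. Of 4 mural cell markers 1 was higher in cortex and 3 in thalamus, with sums from 13058 to 16163 in sham cortex, from 13980 to 17764 in TBI cortex, from 11004 to 14669 in sham thalamus and from 14402 to 18674 in TBI thalamus. None of the 6 choroid plexus markers was called in either region, with sums from 595 to 23389 in sham cortex, from 833 to 32089 in TBI cortex, from 570 to 106672 in sham thalamus and from 658 to 258298 in TBI thalamus. Of 7 astrocyte markers 4, Gfap and Aqp4 among them, were higher in each region, and 2 were lower in cortex, or 1 without rat 45. Gfap rose by 2.26 on the log2 scale in both regions. The astrocyte sum ran from 311426 to 333774 in sham cortex, from 334822 to 380300 in TBI cortex, from 228844 to 243201 in sham thalamus and from 321203 to 373640 in TBI thalamus. No marker of these 5 lists lay at or under 3 fragments in every library of a group. The part of these cells in the laminin and Itgb4 results was not tested.

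The TBI effect in thalamus minus that in cortex was tested for 34 members. It was positive past the threshold for 3, all leukocyte integrins (Itgb2, Itgal and Itgam). It was negative for 1, Lamb1, which was called lower in thalamus and not in cortex. Over all 15678 loci this difference was positive for 2.72% and negative for 4.54% past the threshold. None of the 17 matrix-binding integrins tested passed by limma or edgeR (3 had an unadjusted p under 0.05), and their median difference was 0.10, beside 0.77 for the 7 leukocyte integrins, also over the 5 with a mean of at least 10 in each group, -0.17 for the 10 laminins, or -0.34 without rat 45, and -0.01 over all loci. At 6 of 10, microglia and macrophage markers also had a larger TBI effect in thalamus.

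The regions were also compared in the sham-operated rats, 3 months after their surgery. Here 9 of 34 members (26.5%) were higher in thalamus than in cortex and 11 (32.4%) were lower, shares close to the 33.5% and 27.9% of all 15678 loci. Among the laminins Lamb3 was the highest in thalamus relative to cortex, by 1.79 ± 0.14 on the log2 scale (adjusted p = 1.35e-11, limma). Its counts ran from 62.4 to 89.6 in cortex, with a median of 71.3, and from 211 to 313 in thalamus, with a median of 243, so the ranges of the regions did not overlap. All 3 tested collagen-binding subunits were lower in thalamus, from -0.70 for Itga1 to -2.91 for Itga11, and Itga4 was lower by 1.87 on that scale (the coded difference was -1.87, adjusted p = 1.02e-08). All 7 fibroblast and meningeal markers were lower in sham thalamus too, and their part was not tested.

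Of the laminin-binding subunits Itga3, Itga6 and Itga7 were higher in sham thalamus, by 0.51, 0.45 and 0.26 on the log2 scale, whereas Itgb4 was lower, at -1.03. Itgb2 was higher by 0.37 ± 0.09 (adjusted p = 0.00128, limma), and Itgal, Itgam and Itgax did not differ past the threshold. Itgb6 had the largest positive value, 2.93 ± 0.89 (adjusted p = 0.00629), at 0 to 53.8 normalized counts in cortex and 20.8 to 229 in thalamus, with the highest thalamic values in rats 50 and 34, the libraries with the highest choroid plexus sums. Lama3 was higher by 1.26 ± 0.48 (adjusted p = 0.0254), with the same rats highest, and missed the threshold without rat 34 or rat 50 in thalamus, at adjusted p values of 0.0762 and 0.0822, or without rat 38 or rat 55 in cortex, at 0.0503 and 0.052. Lamc3 was lower, at -0.44 ± 0.18 (adjusted p = 0.033), a call lost when any 1 of 7 libraries was left out, those of rats 32 and 34 in cortex and of rats 26, 32, 38, 50 and 55 in thalamus, at adjusted p values from 0.0507 to 0.0713, and by edgeR on recovered fragments (adjusted p = 0.0527).

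**Figure D5:**
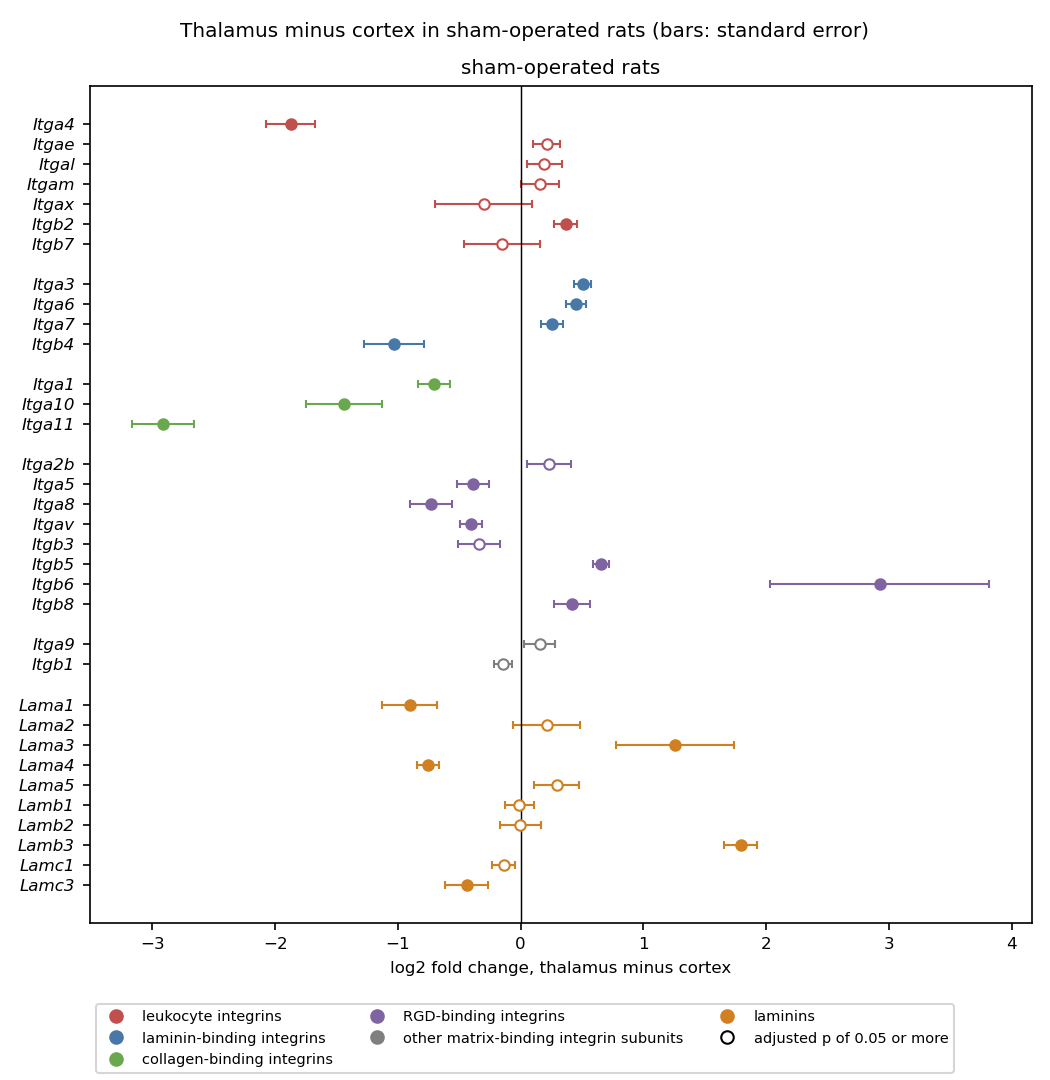
The plot shows the log2 difference of thalamus minus cortex in sham-operated rats for each tested member, with its standard error as a bar, and filled points are past the adjusted p of 0.05. Itga11 at -2.91 and Itga4 at -1.87 mark the cortical end, and Itgb6 at 2.93 and Lamb3 at 1.79 the thalamic end.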

How the data were processed

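Reads of stranded polyadenylated RNA libraries were aligned by the authors with TopHat2 2.0.11 and Bowtie2 2.2.2 and assembled with Cufflinks 2.2.1. The signal the authors deposited per locus and library is a fragment count divided by a size factor, with no transcript length. All low values (100% within 0.1, up to 1000 fragments) were whole multiples of the value of 1 fragment, which gave the depth and a floor of 3 fragments, for counting error only.

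Named loci (37.1% of loci had no name and were left out) were fitted with limma 3.58.1 in R 4.3.3 (lmFit, eBayes with trend) on log2(value + 1), with a mean of at least 10 and Benjamini-Hochberg adjustment. TBI was compared with sham within each region over 12 libraries. The interaction and the sham regions were fitted over 24 libraries without a block. The alternative with the rat as block rests on shared rat numbers. Within a rat, deviations from the group means correlated with a median of 0.187 (0.00393 to 0.569), and 10 of 12 rats lay over 0.1.

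Of 37 symbols that met the naming rule 1 is not reported here and is left out of the members' counts. The members and lists were chosen with earlier results of these data known. Named are all leukocyte integrins that passed the filter, the 2 smallest adjusted p per other class and region, every member whose TBI effect differed between regions, and the 2 highest and 2 lowest changes per list and region, with others by counts and ranges. Those named beside a failed or changed call, and Cd8b, Csf3r, S100a9, Gfap, Sparc and the adaptors that differed between regions, were chosen after their values were seen. edgeR 4.0.16 on recovered fragments, TMM, filters, pseudocounts of 0.1 and 5, left-out libraries and the other alternatives are compared in the closing section. On simulated data limma recovered 100% of changes of 1 on the log2 scale and 64% of changes of 0.6 set in cortex, and 86% and 22% of those set for the interaction. In the simulation every locus had the same dispersion, no library or rat stood apart, and changes were set only in loci well above the filter. Those shares are thus no measure of power for noisier members, such as Lama3 in thalamus (SE 0.57).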

Additional observations from a re-analysis of the deposited data

Results flagged for a closer look

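In 20 cases 1 library of a group of 6 lay so far from the nearest other that the gap, as a share of the group's range, exceeded Dixon's critical value at the 95% level, where 132 groups of tested members had been examined and chance alone gives about 6.6. Of the 20, 14 were the highest value in a library of rat 45. In TBI thalamus its normalized counts were 87.4 for Itga11, 311 for Itga5, 314 for Itga8, 699 for Itgb4, 508 for Itgb6, 670 for Lama1, 1384 for Lama2, 1049 for Lama3, 933 for Lama4, 1078 for Lama5, 6325 for Lamb2, 3097 for Lamc1 and 1021 for Lamc3, and in TBI cortex it stood at 81.6 for Itgb6. The widest gap was that of Itgb6 in TBI thalamus, where the next value was 51.6. No leukocyte integrin was among them. Rat 34 had the highest sham thalamus value of Itga5 (153), Itgb4 (399), Lama1 (264) and Lamc3 (537). The remaining cases were the highest TBI cortex value of Itgb5, 1635 in rat 56, and the lowest sham cortex value of Lamb1, 1605 in rat 32.

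The TBI effect differed between the regions, by the interaction term of limma over 24 libraries, for 4 members. The difference of thalamus minus cortex on the log2 scale was 0.77 for Itgb2, 0.85 for Itgal, 0.75 for Itgam and -0.65 for Lamb1.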

How the results depend on the processing

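All 18 calls in cortex, 13 in thalamus and 4 of the interaction were the same genes by edgeR on recovered fragments, and every one also held without both libraries of rat 45, an alternative chosen after seeing the data, as was a mean of at least 10 in each group. By edgeR 19 of the 20 calls between the sham regions held, all but Lamc3. No log2 fold change of a called member changed sign under any alternative run. With all 24 libraries in 1 fit, laminins higher in thalamus went from 1 to 2. With a mean of at least 50, where Itga4 and Itgax were not tested, 3 leukocyte integrins instead of 5 were higher in thalamus. At a threshold of 0.01, laminins higher in thalamus went from 1 to 0. Members whose TBI effect in thalamus minus that in cortex was positive went from 3 to 1 (leukocyte integrins likewise 1). Those with a negative difference went from 1 to 0. Leaving out each replicate in turn, laminins higher in thalamus ranged from 0 (without sham rat 55) to 2 (without sham rat 34 or TBI rat 56). Both regions came from the same rats. With the rat as replicate block, the TBI effect in thalamus minus that in cortex was positive for 4 members and negative for 1. In sham rats 9 were then higher and 11 lower in thalamus. The block changed no other call than that of Itgb1. Over all loci it called 593 positive and 1019 negative differences of the TBI effect instead of 427 and 711. Counting Itga4 with the matrix-binding integrins or summing both loci of Itga3 and Itgav moved no count by over 1.5 times. Depth limited Itgad, Itga2, Itgb7, Itga10 and Itgax most.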
